A study of Homo sapiens with 8 samples.

Results

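Of the 19775 genes named on the arrays, 5 are described here because their probe sets gave different answers to 1 comparison: FER, GOLIM4, ZFYVE16, AHNAK2 and DEPDC1. A probe set is a small group of short probes that reads 1 stretch of a transcript, and a gene can have several. All probe sets whose single gene symbol was that of a member were taken, which gave 17: 3 for FER, 3 for GOLIM4, 5 for ZFYVE16, 2 for AHNAK2 and 4 for DEPDC1. The members were chosen for the way their probe sets differed between the substrates, so every soft-against-stiff value of these 17 probe sets is a description without a test.

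The cells were MDA-MB-231, an established human triple-negative breast cancer line, in serum-supplemented DMEM/F12 medium (10% FBS). They were kept for 2 days on a soft or on a stiff substrate. Each substrate has 4 arrays from Affymetrix, 1 for each biological replicate A, B, C and D, and any 2 of the 8 arrays correlated at 0.9932 to 0.9982. Nothing in the labels says how the 4 cultures of a substrate were separated, and every p-value here rests on the spread among these 8 samples alone, part of which may be technical. No elastic modulus was given in the sources used here.

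Levels are log2 RMA values, in which a difference of 1 is a 2-fold change, and a probe set's level is not compared with that of another probe set. A background level of 6.13 was taken from 14 measured genes held to be silent in breast cells (95th percentile), and 15 of the 17 probe sets had a group mean above it. All 6 markers of the line that were looked at (VIM, CD44, CAV1, AXL, MSN and PLAU) lay at 12.25 or above on stiff, whereas CDH1, PGR and FOXA1 lay under background and ESR1 (6.38) and GATA3 (8.32), also listed as low in this line, lay above it. Of the line's markers, AXL was lower on soft (soft minus stiff -0.227, limma adjusted p = 0.0318), and PLAU measured 12.0 on soft. Of 10 measured markers of fibroblasts, endothelium and leukocytes, 4 had a group mean above background: COL1A1 (7.64 on stiff), PECAM1 (7.52), PDGFRB (6.25) and CD3E, which passed it on soft only (6.15, against 6.04 on stiff). CD3E is also 1 of the 14 genes that set this level, so its crossing says nothing of leukocytes. Among the 4 markers above background PECAM1 was higher on soft by 0.49 (limma adjusted p = 0.00211), while the endothelial markers CDH5 and VWF lay under background. The part of such cells in the results was not tested. In bulk RNA, fewer cells with a transcript and less of it per cell cannot be told apart.

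A gene can yield several RNAs through alternative starts, splicing and polyadenylation sites, and a probe set reads only the forms that contain its stretch. Some probe sets also carry a mark of the manufacturer: s for probes shared with other transcripts, x for probes that may also bind unrelated sequences, and a for several transcripts of 1 gene. The 5 proteins work in different places: FER at cell contacts, GOLIM4 in the Golgi, ZFYVE16 on endosomes, AHNAK2 as a large scaffold, and DEPDC1 in dividing cells. In RefSeq, FER has 5 curated transcripts, ZFYVE16 has 8, and GOLIM4, AHNAK2 and DEPDC1 have 2 each.

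In every one of the 5 genes exactly 1 probe set was clearly higher on soft, by 0.76 to 1.29, while the others of the gene lay between -0.53 and 0.21. At an adjusted p under 0.05 (limma, Benjamini-Hochberg over all 54613 probe sets), 9 of the 17 were past the threshold, where 9.27% of all probe sets were. Of these, 5 were higher (4.64% of all probe sets) and 4 lower (4.63%). The arrays of both substrates did not overlap for 9 of the 17, where 16.6% of all probe sets did not. These shares are those of the contrast that chose the members, and nothing is read from them.

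**Figure D1:**
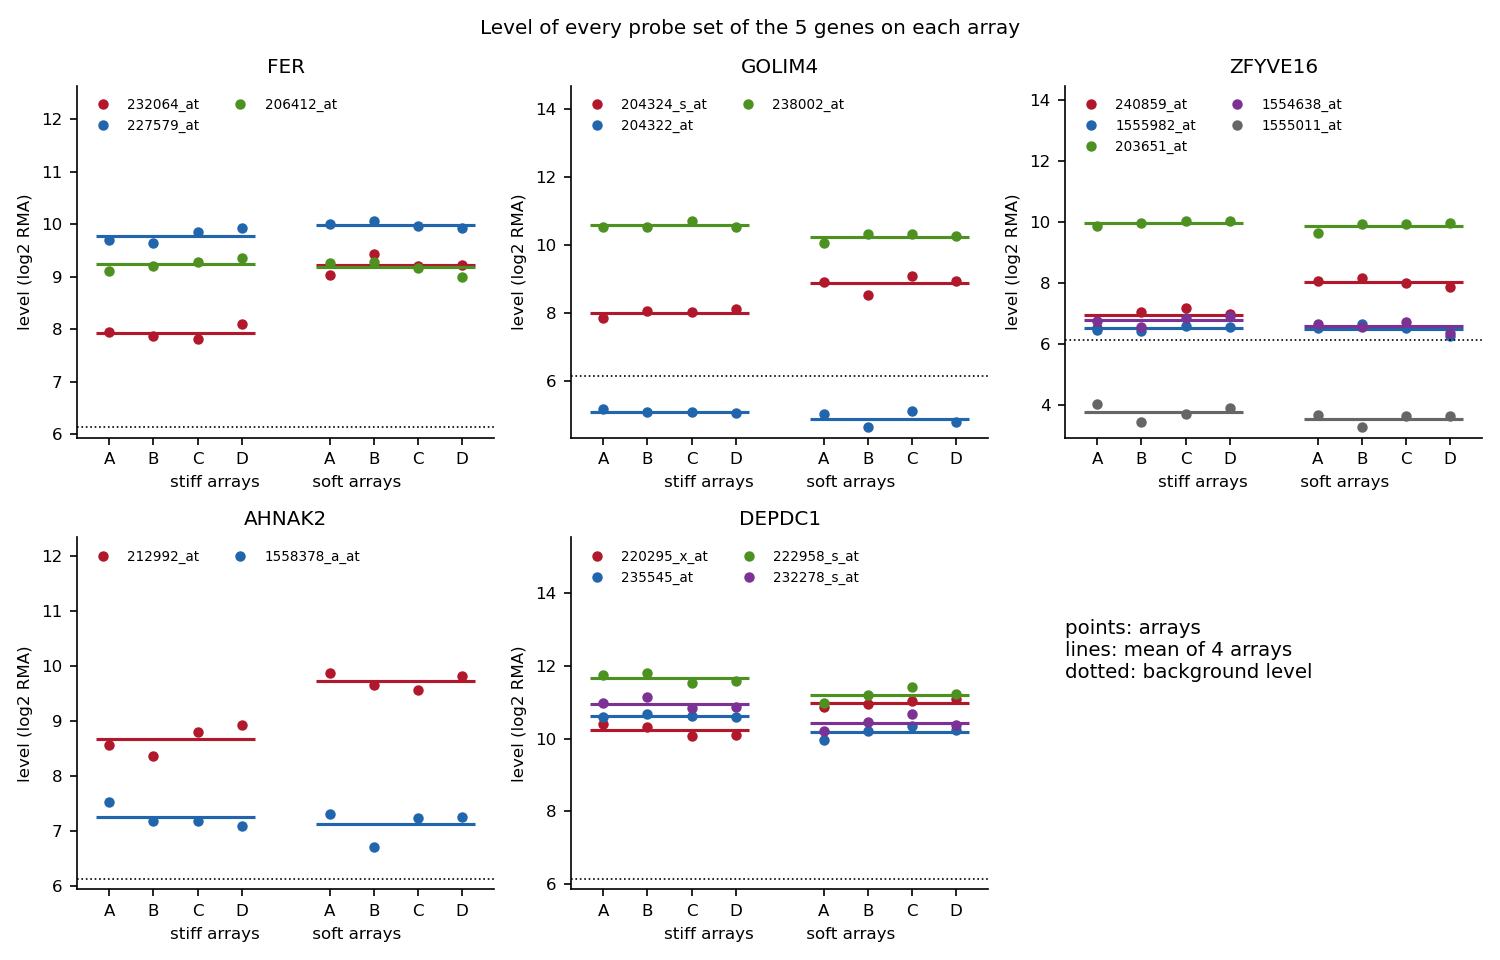
Each panel is 1 gene, the x axis lists the 4 stiff and 4 soft arrays by letter, and the y axis is the level (log2 RMA); points are arrays, coloured by probe set, horizontal lines are means of 4 arrays and the dotted line is the background level of 6.13. In each panel the probe set in red is higher on soft, and the others stay near their stiff level or lie lower.

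FER is a cytoplasmic tyrosine kinase that acts at cell-cell and cell-matrix contacts, where it binds p120 catenin and phosphorylates the actin-binding protein cortactin. Its probe set 232064_at measured 7.94, 7.88, 7.81 and 8.10 on stiff A to D and 9.03, 9.44, 9.20 and 9.22 on soft A to D. Every soft array was higher than every stiff array, by at least the distance from 8.10 to 9.03. The means were 7.93 ± 0.12 (SD, n = 4) on stiff and 9.22 ± 0.17 (SD, n = 4) on soft, a difference of 1.29 (SE 0.0932), or 2.45-fold.

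The probe set 206412_at, named in the platform table by a RefSeq mRNA of FER, measured 9.11, 9.20, 9.28 and 9.36 on stiff and 9.26, 9.29, 9.17 and 9.00 on soft. These arrays overlapped, and the difference was -0.06 (SE 0.0816), or 0.025 with stiff A and B as the only stiff arrays. The last FER probe set, 227579_at, measured 9.70, 9.64, 9.86 and 9.93 on stiff and 10.01, 10.06, 9.96 and 9.93 on soft. Stiff D and soft D met at 9.93, and the difference was 0.21 (SE 0.0757). This small difference depended on the stiff arrays: it was 0.32 with stiff A and B as the only stiff arrays and 0.095 with C and D, where that of 232064_at was 1.31 and 1.27. FER was therefore clearly higher on soft at 1 of its 3 probe sets.

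GOLIM4 is a membrane protein of the cis-Golgi that cycles through endosomes and is sent to lysosomes when manganese is high. Its probe set 204324_s_at, which carries the s mark, measured 7.84, 8.05, 8.03 and 8.10 on stiff and 8.90, 8.52, 9.08 and 8.95 on soft. The groups did not overlap, and soft B lay nearest to stiff. The means were 8.01 ± 0.11 (SD, n = 4) and 8.86 ± 0.24 (SD, n = 4), a difference of 0.86 (SE 0.111), or 1.81-fold.

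The GOLIM4 probe set 238002_at went the other way, at 10.54, 10.53, 10.70 and 10.54 on stiff and 10.04, 10.32, 10.32 and 10.27 on soft. All soft arrays lay under all stiff arrays, and the difference was -0.34 (SE 0.0783), or 1.27-fold lower. The third GOLIM4 probe set, 204322_at, lay under background, from 5.05 to 5.18 on stiff and from 4.63 to 5.10 on soft, and these ranges overlapped. GOLIM4 was thus higher at 1 probe set and lower at another, and without the probe set marked s the largest distance between its differences was 0.13 in place of 1.20.

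ZFYVE16, also called endofin, is a protein of early endosomes whose FYVE finger binds a membrane phosphoinositide, and it recruits TOM1 and takes part in SMAD signalling. Its probe set 240859_at measured 6.54, 7.05, 7.19 and 6.98 on stiff and 8.07, 8.17, 8.00 and 7.86 on soft. The groups did not overlap, and stiff A was the lowest array. The means were 6.94 ± 0.28 (SD, n = 4) and 8.03 ± 0.13 (SD, n = 4), a difference of 1.09 (SE 0.125), or 2.12-fold.

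The ZFYVE16 probe set that the platform table names by a RefSeq mRNA, 203651_at, measured 9.86, 9.98, 10.02 and 10.03 on stiff and 9.65, 9.92, 9.94 and 9.96 on soft. The arrays overlapped and the difference was -0.11 (SE 0.0807), with soft A apart from the other soft arrays. The other 3 ZFYVE16 probe sets also overlapped between the substrates: 1555982_at differed by -0.03 (SE 0.0854; 0.0475 with stiff A and B as the only stiff arrays), 1554638_at by -0.20 (SE 0.0949) and 1555011_at, which lay under background, by -0.21 (SE 0.13). The unmarked 1555982_at and 1554638_at lay just above background, from 6.43 to 6.91 on stiff and from 6.26 to 6.72 on soft, and 1555011_at from 3.44 to 4.04 and from 3.27 to 3.68. So 1 of the 5 probe sets of this endosomal protein was well above its stiff level, and the other 4 differed by -0.21 to -0.03.

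AHNAK2 is a very large protein with a PDZ domain and long repeats, related to the membrane scaffold AHNAK. Its probe set 212992_at measured 8.57, 8.37, 8.80 and 8.93 on stiff and 9.88, 9.65, 9.56 and 9.81 on soft. The groups did not overlap. The means were 8.67 ± 0.25 (SD, n = 4) and 9.73 ± 0.15 (SD, n = 4), a difference of 1.06 (SE 0.118), or 2.08-fold. With stiff A and B as the only stiff arrays it was 1.25, and with C and D it was 0.86.

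The only other AHNAK2 probe set, 1558378_a_at, measured 7.53, 7.19, 7.18 and 7.10 on stiff and 7.32, 6.71, 7.23 and 7.25 on soft. The arrays overlapped, soft B was far below the rest of its group, and the difference was -0.12 (SE 0.136), or 0.017 without soft B. Within stiff, both probe sets ranked the arrays differently: the mean of stiff A and B minus that of C and D was -0.395 at 212992_at and 0.22 at 1558378_a_at.

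AHNAK2 is the member for which RefSeq's promoter table (GRCh38.p14) holds more than 1 start, with 2 starts 7867 bases apart on chromosome 14, minus strand. The 150 bases before each are shown because RNAs from these starts differ in their first part; whether either probe set separates them was not tested. Capitals mark the GC box, GGGCGG on either strand, which 42.6% of all windows of 250 bases before a start hold. It occurs 4 times in the 150 bases shown before the outer start and 1 time in those before the inner start. In the windows of 250 bases, to which the 42.6% refers, the numbers are 5 and 1.
AHNAK2 outer start, chr14:104978375-104978524, minus strand: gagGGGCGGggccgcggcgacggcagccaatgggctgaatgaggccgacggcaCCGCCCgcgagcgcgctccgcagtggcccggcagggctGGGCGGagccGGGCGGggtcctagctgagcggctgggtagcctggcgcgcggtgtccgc
AHNAK2 inner start, chr14:104970508-104970657, minus strand: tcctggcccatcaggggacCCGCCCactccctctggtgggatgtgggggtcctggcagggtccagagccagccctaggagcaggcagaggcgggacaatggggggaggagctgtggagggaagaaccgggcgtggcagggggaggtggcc

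DEPDC1 is a DEP domain protein made mainly in dividing cells, where it is needed for mitosis and binds the repressor ZNF224. Of its 4 probe sets, 3 were lower on soft. The one that differed most, 232278_s_at, measured 10.98, 11.15, 10.83 and 10.86 on stiff and 10.21, 10.46, 10.67 and 10.37 on soft, which is -0.53 (SE 0.103), or 1.44-fold lower. Probe set 222958_s_at measured 11.76, 11.82, 11.54 and 11.59 on stiff and 10.98, 11.21, 11.43 and 11.22 on soft, a difference of -0.47 (SE 0.0989). In both, stiff B was the highest array and soft A the lowest. Probe set 235545_at, which carries no mark, measured 10.60, 10.69, 10.62 and 10.60 on stiff and 9.96, 10.21, 10.35 and 10.25 on soft, a difference of -0.44 (SE 0.0823). None of these 3 had overlapping groups.

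The fourth DEPDC1 probe set, 220295_x_at, is named by a RefSeq mRNA of the gene and carries the x mark. It measured 10.41, 10.33, 10.08 and 10.11 on stiff and 10.88, 10.96, 11.03 and 11.10 on soft. All soft arrays were above all stiff arrays, with means of 10.23 ± 0.16 (SD, n = 4) and 10.99 ± 0.09 (SD, n = 4) and a difference of 0.76 (SE 0.0871), or 1.69-fold. With stiff A and B as the only stiff arrays the difference was 0.62, and with C and D it was 0.90. For 232278_s_at, 222958_s_at and 235545_at it was -0.64, -0.58 and -0.45 with A and B, and -0.42, -0.36 and -0.42 with C and D. The probe set named by a RefSeq mRNA was thus the one that differed little in FER and ZFYVE16 and the higher one in GOLIM4 and DEPDC1, and AHNAK2 has none.

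Genes of the G2 and M phases often carry a CHR element, TTTGAA, near the start, with CCAAT boxes before it. The 250 bases before the DEPDC1 start (RefSeq, GRCh38.p14) are shown for that reason, with both motifs in capitals wherever they occur on either strand. CHR is present 1 time, at bases 224 to 229 of the stretch, as its reverse complement, and CCAAT 1 time, at bases 199 to 203; the motifs do not overlap. Of all 35116 windows of this length 13.3% hold CHR and 32.0% hold CCAAT. These letters are a description of the window and say nothing of which probe set follows it.
DEPDC1, chr1:68497083-68497332, minus strand: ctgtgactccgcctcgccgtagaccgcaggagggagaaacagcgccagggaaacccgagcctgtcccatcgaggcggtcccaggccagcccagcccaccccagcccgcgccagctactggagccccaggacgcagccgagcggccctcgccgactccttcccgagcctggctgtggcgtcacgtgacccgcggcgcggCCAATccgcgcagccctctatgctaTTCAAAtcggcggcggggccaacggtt

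**Figure D2:**
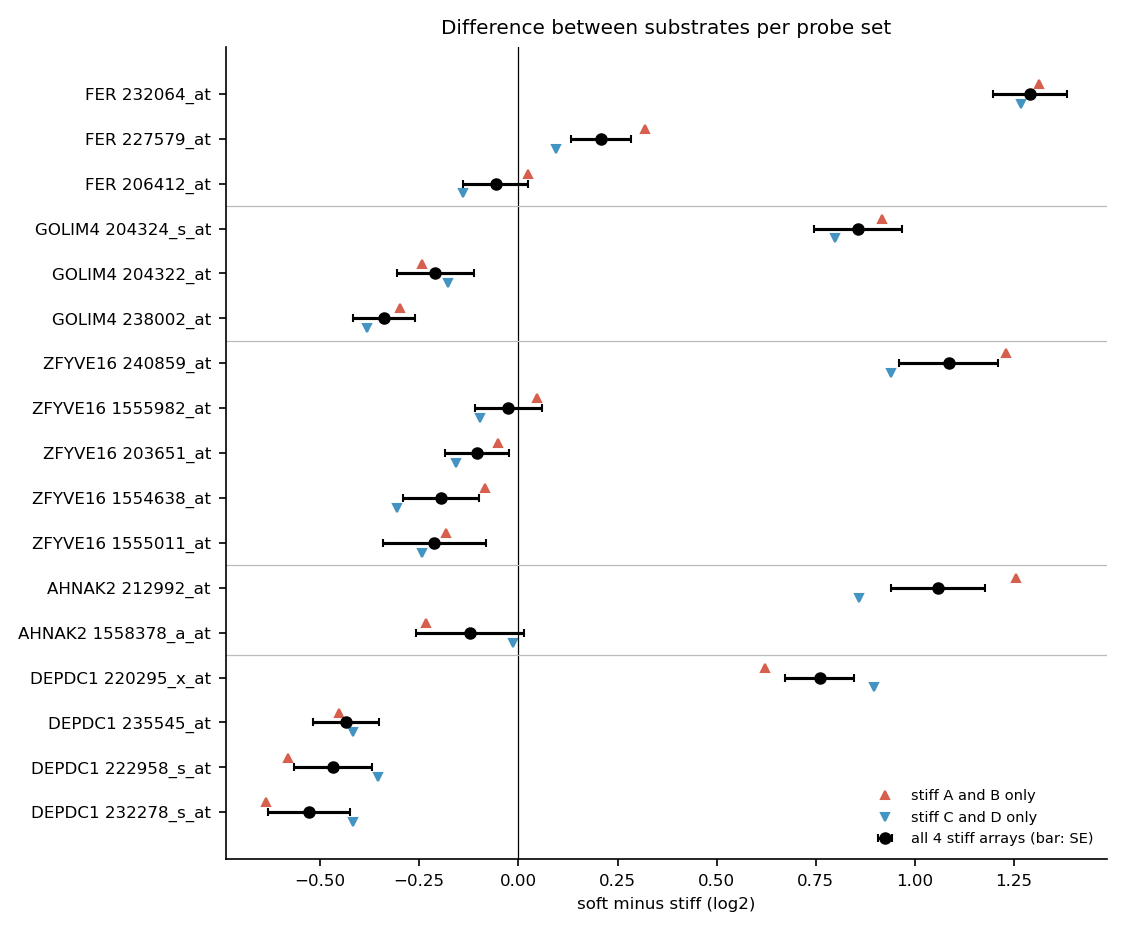
Soft minus stiff on the log2 scale (x axis) for each of the 17 probe sets (y axis, grouped by gene); black points use all 4 stiff arrays and their bars are SE, upward triangles use stiff A and B only, downward triangles stiff C and D only. The probe set on top of each gene lies between 0.62 and 1.31 in all 3, and those of DEPDC1 below it between -0.64 and -0.36.

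Within an array, the level of 1 probe set minus that of another cancels whatever the array adds to both. For FER, 232064_at minus 206412_at was -1.17, -1.32, -1.47 and -1.26 on stiff and -0.23, 0.15, 0.03 and 0.22 on soft, a shift of 1.35. For DEPDC1, 220295_x_at minus 232278_s_at was -0.57, -0.82, -0.75 and -0.75 on stiff and 0.67, 0.50, 0.36 and 0.73 on soft, a shift of 1.29. Neither gene had overlapping groups.

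The shift was 1.30 for ZFYVE16 (240859_at minus 1555011_at), with stiff values from 2.50 to 3.61 and soft values from 4.22 to 4.90. It was 1.28 when only probe sets above background were used. It was 1.20 for GOLIM4 (204324_s_at minus 238002_at), from -2.70 to -2.44 on stiff and from -1.80 to -1.14 on soft. It was 1.18 for AHNAK2 (212992_at minus 1558378_a_at), from 1.04 to 1.83 on stiff and from 2.33 to 2.94 on soft. Groups were apart in all 5 genes, as their choice implies. Among all 10523 genes with more than 1 probe set, the median distance between the highest and the lowest difference was 0.172 and the 95th percentile 0.552, and 29 genes reached the 1.18 of AHNAK2.

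**Figure D3:**
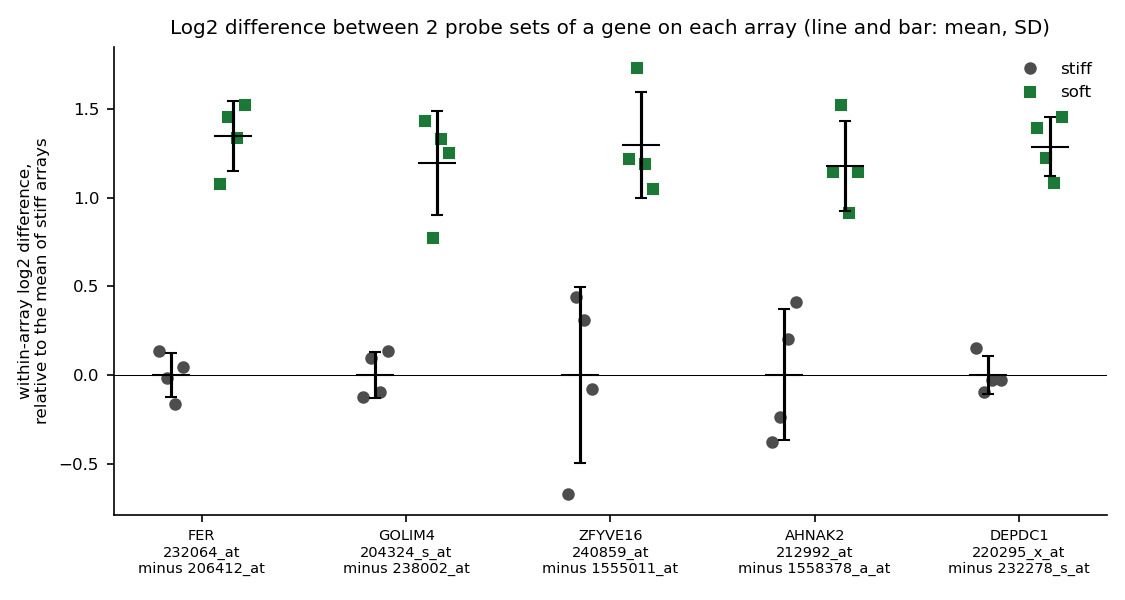
For each gene (x axis, with the pair of probe sets named), the within-array log2 difference between its highest and lowest probe set is plotted relative to the mean of the stiff arrays (y axis); circles are stiff and squares soft arrays, lines and bars are mean and SD (n = 4). Soft squares lie above all stiff circles of the same gene, and the stiff spread is widest for ZFYVE16 (SD 0.498).

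What the choice of members did not use is how the probe sets vary among the 4 arrays of a substrate. For DEPDC1 the probe set that was higher on soft and the 3 that were lower tended to be high on the same arrays. At 220295_x_at, 222958_s_at and 232278_s_at stiff A and B lay above stiff C and D, by 0.275, 0.225 and 0.22, and at 235545_at by 0.035; soft A was the lowest soft array at all 4. After subtracting each group's mean, Pearson's r of 220295_x_at with the others was 0.74 (222958_s_at), 0.59 (232278_s_at) and 0.45 (235545_at) over the 8 arrays, and among those 3 it was 0.82 to 0.96. The median over 16307 pairs of probe sets of 1 gene above background was 0.394, with quartiles of 0.0138 and 0.69. Arrays share their scaling across all probe sets, and each r rests on 8 points, so no p is given.

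**Figure D4:**
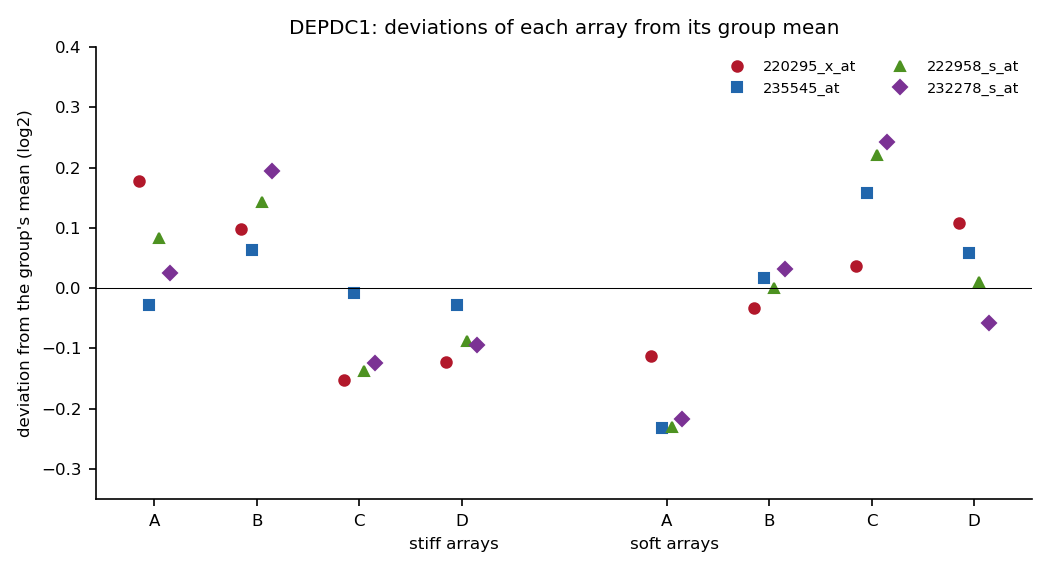
For the 4 DEPDC1 probe sets the y axis gives the deviation of each array from the mean of its own substrate (log2), and the x axis the 4 stiff and 4 soft arrays by letter. Stiff C and D lie under 0 and soft A is the lowest of the soft arrays for every probe set, also for 220295_x_at, the one that was higher on soft.

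For FER, 206412_at and 227579_at, which differed little between the substrates, had r = 0.78 with each other, and 0.24 and 0.37 with 232064_at. For AHNAK2, r between both probe sets was -0.01. For GOLIM4, 204324_s_at had r = -0.09 with 238002_at and 0.63 with 204322_at, the probe set under background. For ZFYVE16, 240859_at had r = 0.59 with 1555982_at, 0.27 with 203651_at, 0.22 with 1554638_at and -0.69 with 1555011_at, the last of them under background. Among the 5 probe sets that were higher on soft, taken 1 per gene, the 10 values of r ran from -0.76 to 0.15 with a median of -0.02. Their deviations thus showed no common direction. The lowest r were those of DEPDC1 with ZFYVE16 (-0.755) and AHNAK2 (-0.682), and of FER with GOLIM4 (-0.465). The mean of stiff A and B minus that of C and D was 0.275 for DEPDC1, -0.29 for ZFYVE16 and -0.395 for AHNAK2 at these probe sets.

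Other genes were named by a narrower rule than the members: non-members with probe sets past the threshold in opposite directions, both above background. The 5 with the largest distance between those probe sets are given. These were MBNL2, a splicing regulator (0.70 and -1.13, a distance of 1.83), KMT2A, a histone methyltransferase (0.89 and -0.47, 1.35), ATAD2, a chromatin-bound ATPase (0.71 and -0.54, 1.25), NFAT5, the osmotic stress factor (0.50 and -0.69, 1.19), and BTBD7 (0.77 and -0.32, 1.09). The lower probe set of MBNL2 and both probe sets of the NFAT5 pair carry the s mark. The pairs of KMT2A, ATAD2 and BTBD7 carry no mark. Over all genes, 60 of 10523 (0.57%) had probe sets past the threshold in both directions, and 2 of the 5 members, GOLIM4 and DEPDC1, were among them. In FER, ZFYVE16 and AHNAK2 a single probe set was past the threshold, so these members would not meet the rule. Distances over all probe sets of a gene, with no call required, reached 1.995.

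Relatives and partners of each member were tested with limma across all probe sets, each gene by its probe set with the highest mean. The list of DEPDC1 also holds general genes of dividing cells: MKI67, CCNB1, BUB1, AURKA, PLK1, TOP2A, KIF11 and TTK. Such genes are counted among the relatives here. The choice of members does not rest on any listed gene, but the lists were drawn up with earlier results of these data known. Counts per list are therefore a description and no independent test. Of 62 measured, 11 passed the threshold, where 10.3% of all genes did: 4 rose on soft, where 4.39% of all genes did, and 7 fell, where 5.93% of all genes did. The median difference of all genes was 0.0075.

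Around DEPDC1, 7 of 12 genes fell, none rose and 5 did not pass the threshold, with a list median of -0.36. Among the 7, DEPDC1B and DEPDC7 are relatives of DEPDC1 and the rest are general genes of dividing cells. DEPDC1B, the closest paralog, which also acts at mitotic entry, fell by 0.66 (SE 0.15, adjusted p = 0.0202), from 10.22 ± 0.19 on stiff to 9.56 ± 0.33 on soft (SD, n = 4). DEPDC7, another DEP domain gene, also fell (adjusted p = 0.005), from 6.19 on stiff to 5.34 on soft; the stiff mean was barely above background and the soft mean under it, so the size of its fall is not measured well. The spindle checkpoint kinase TTK fell by 0.46 (SE 0.08, adjusted p = 0.00599), from 10.77 to 10.31. The other 4 that fell were the mitotic kinases BUB1, AURKA and PLK1 and the cyclin CCNB1, by 0.34 to 0.44. BUB1 was lower past the threshold at 1 of its 5 probe sets, with a distance of 0.482 between its highest and lowest difference. AURKA was so at 3 of 3, CCNB1 at 2 of 2 and PLK1 at its only probe set. None of these genes had probe sets past the threshold in both directions. ZNF224, the partner repressor, differed by 0.28 (adjusted p = 0.104). The limma call of DEPDC1B was lost without stiff A (adjusted p = 0.0554) or stiff B (0.0628), and that of CCNB1 without stiff A (0.0722), stiff B (0.0806), soft A (0.0538) or soft B (0.0639). With C and D as the only stiff arrays 6 of the 7 genes missed the threshold (adjusted p from 0.0567 for TTK to 0.193 for CCNB1) and DEPDC7 passed it. With A and B as the only stiff arrays DEPDC7 (0.052) and CCNB1 (0.0637) missed it. All 7 stayed lower in each of these fits. Of the 10 genes of this list with a window in the promoter table, 4 (KIF11, MKI67, PLK1 and TOP2A, all general genes of dividing cells) held both CHR and CCAAT. Of these only PLK1 fell. KIF11 (adjusted p = 0.463), MKI67 (0.0824) and TOP2A (0.127) did not pass the threshold, though another MKI67 probe set was lower past it. DEPDC1B, DEPDC7, CCNB1 and BUB1, which fell, had no CHR in their windows. Bases past the start were not searched. AURKA and TTK, which also fell, had no window. Whether the motifs bear on these differences was not tested.

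Around AHNAK2, 1 of 7 genes rose and none fell (median 0.188). This was AHNAK itself, by 0.47 (SE 0.0794, adjusted p = 0.00541), from 11.94 ± 0.09 to 12.40 ± 0.13 (SD, n = 4), or 1.38-fold. A second AHNAK probe set, 220016_at, rose by 0.73 (SE 0.119, adjusted p = 0.00446), and its other 3, under background, differed by 0.04 to 0.34. The AHNAK partners S100A10 and ANXA2 differed by 0.21 (adjusted p = 0.118) and 0.03 (adjusted p = 0.813). Over the 4 probe sets of ANXA2 the distance between the highest and lowest difference was 0.575, with none past the threshold. MYOF did not pass the threshold (adjusted p = 0.0994), but another of its probe sets was higher past it. With stiff C and D as the only stiff arrays AHNAK differed by 0.40 and missed the threshold (adjusted p = 0.0619).

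Around FER, 2 of 11 genes rose and none fell (median -0.02). Plakoglobin (JUP), a junction protein, rose by 0.47 (SE 0.0681, adjusted p = 0.00241), from 7.47 ± 0.10 to 7.94 ± 0.06 (SD, n = 4), at its single probe set, which carries the s mark. Alpha-catenin (CTNNA1), which links cadherins to actin, rose by 0.33 (SE 0.0574, adjusted p = 0.00575) and at 3 of its 5 probe sets, all 3 with the s or x mark. Its unmarked 215883_at differed by 0.19 (adjusted p = 0.0619) and 1558214_s_at by -0.035 (adjusted p = 0.862). With stiff C and D as the only stiff arrays CTNNA1 missed the threshold (adjusted p = 0.0573). FES, the closest paralog of FER, differed by -0.06 (adjusted p = 0.693) and lay under background. The FER substrate cortactin (CTTN) and beta-catenin (CTNNB1) differed by 0.11 (adjusted p = 0.363) and -0.01 (adjusted p = 0.945).

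Around ZFYVE16, 1 of 18 endosomal and FYVE domain genes rose and none fell (median 0.0875). ZFYVE1 rose by 0.31 (SE 0.0728, adjusted p = 0.0226). That call was lost without stiff B (adjusted p = 0.058), soft A (0.0545), soft B (0.0579) or soft D (0.0572), with C and D as the only stiff arrays (0.119), and when its probe sets were averaged (0.103). ZFYVE9, the closest paralog and a SMAD anchor, differed by 0.14 (adjusted p = 0.496), and the ZFYVE16 partner TOM1 by 0.18 (adjusted p = 0.113). At a probe set other than the one used, EEA1 was lower past the threshold and ZFYVE28, STAM2 and WDFY1 were higher. The distance between the highest and lowest difference was 0.597 for EEA1 and 0.62 for WDFY1.

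Around GOLIM4, limma called none of 14 Golgi membrane proteins and golgins at the probe set with the highest mean (median 0.121). At an unadjusted p under 0.05, 4 of them were higher, where 11.3% of all genes were, and 0 lower, where 13.7% were. By the same measure 2 of 11 were higher and 0 lower around FER, 5 of 18 higher and 1 lower around ZFYVE16, 5 of 7 higher and 0 lower around AHNAK2, and 1 of 12 higher and 9 lower around DEPDC1. The related Golgi protein GOLM1 differed by 0.13 (SE 0.0601, adjusted p = 0.235). The tether GOLGA2 came nearest to the threshold, at 0.30 (SE 0.086, adjusted p = 0.0558), and 1 other of its 4 probe sets was past it. GOLGB1 and TGOLN2 also had 1 other probe set each that was higher past the threshold. For TGOLN2 the distance between the highest and lowest difference was 0.642.

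**Figure D5:**
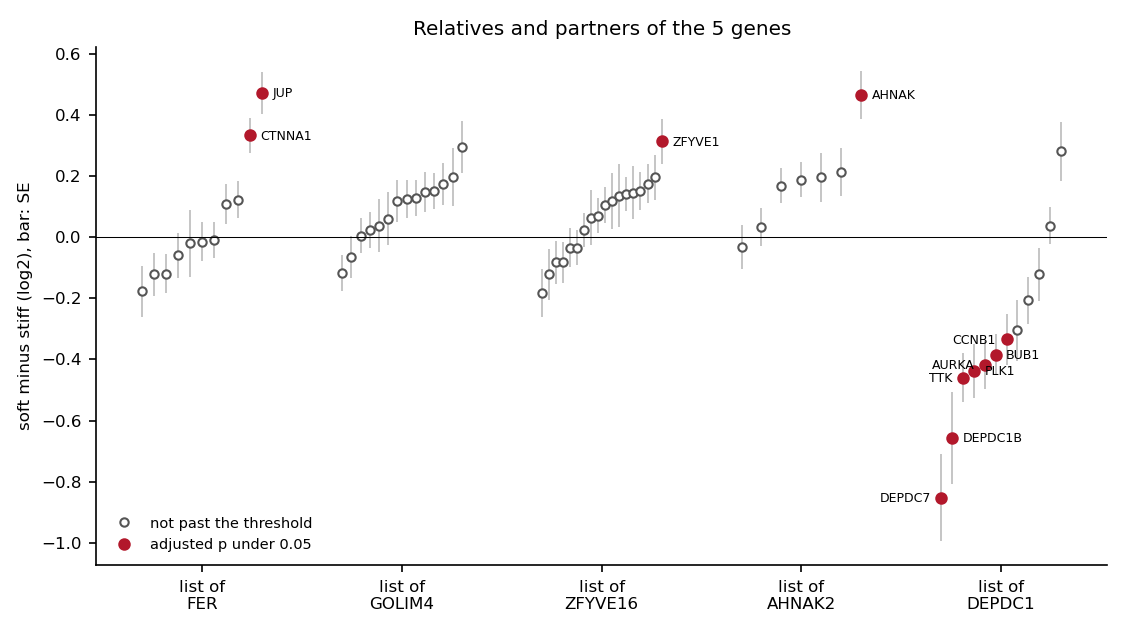
Soft minus stiff on the log2 scale (y axis, bars are SE) is shown for 62 genes in 5 lists (x axis). Each gene is shown by its probe set with the highest mean. The lists hold relatives and partners, and that of DEPDC1 also general genes of dividing cells. Filled points are past a limma adjusted p of 0.05 and open points are not. The 7 genes that fell lie in the list of DEPDC1, 6 of them between -0.66 and -0.34 and DEPDC7, whose soft mean is under background, at the lowest point; the 4 that rose are JUP, CTNNA1, ZFYVE1 and AHNAK.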

How the data were processed

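The authors deposited log2 values summarised by RMA, 1 for each array and probe set. The submitters' processing notes name RMA; its version is not given in the sources used here, and the log2 scale was read from the values. RMA, as usually run, equalises the arrays' probe distributions, and differences of dim probe sets come out compressed. Of 54675 probe sets, 62 controls were left out. Names came from the platform annotation: 41091 probe sets had 1 symbol, 1801 several (not used for any gene) and 11721 none.

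Soft and stiff were compared with limma 3.58.1 (R 4.3.3; lmFit, eBayes without trend, Benjamini-Hochberg over 54613 probe sets, threshold 0.05, two-sided), a procedure tested on simulated data. Precision is limited by having 8 arrays. The members and lists were chosen with earlier results of these data known. CTNND1 had no probe set of its own symbol and was not analysed here. Named were all members, each list's closest paralog and up to 3 genes per direction with the largest changes past the threshold, and 5 further genes with probe sets in opposite directions. BUB1, AURKA, PLK1, CCNB1, ZNF224, S100A10, ANXA2, CTTN, CTNNB1, TOM1 and GOLGA2 were added after their values were seen. So were KIF11, MKI67, TOP2A, MYOF, GOLGB1, TGOLN2, EEA1, ZFYVE28, STAM2 and WDFY1. Alternatives were other scalings, variance models, filters, a replicate block, subsets of stiff arrays and leaving out each array.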

Additional observations from a re-analysis of the deposited data

Results flagged for a closer look

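In 5 of the 34 groups of 4 arrays formed by the 17 probe sets and the 2 substrates, 1 array stood apart from the other 3 by Dixon's criterion, which chance meets in about 1 in 20 groups. At GOLIM4 these were stiff C at 238002_at (10.70) and stiff A at 204322_at (5.18). At ZFYVE16 they were soft A at 203651_at (9.65) and soft B at 1555011_at (3.27). At AHNAK2 it was soft B at 1558378_a_at (6.71). None of the 5 probe sets that were higher on soft had such an array. Soft B was also the lowest soft array at GOLIM4 204324_s_at (8.52) and 204322_at (4.63).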

How the results depend on the processing

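The distance between the highest and lowest probe set was followed under every alternative that could be run. For FER, ZFYVE16, AHNAK2 and DEPDC1 it moved by less than the spread between arrays. AHNAK2 came close to that limit (SD 0.317): its distance was 1.18 with all arrays, 1.49 against stiff A and B and 0.87 against C and D. That of GOLIM4 moved to 0.13 without probe sets marked s or x, where DEPDC1 kept 1 probe set and gave no value. Of the differences of single probe sets, FER 227579_at and DEPDC1 220295_x_at moved by more than the spread between arrays, against either pair of stiff arrays. FER 206412_at, ZFYVE16 1555982_at and AHNAK2 1558378_a_at, none of them past the threshold, changed sign under 2, 3 and 1 alternatives, with values up to 0.051. Member probe sets higher past the threshold numbered 3 in place of 5 without the marked ones. Those lower numbered 2 in place of 4 without the marked ones, 2 against stiff A and B alone, 1 at an adjusted p under 0.01 and 0 in limma against stiff C and D alone, where 4 had an unadjusted p under 0.05 and fewer arrays entered the fit. Genes with calls in both directions numbered 60, and 102 with a trended robust variance, 105 above background, 29 without marked probe sets, 12 against stiff A and B, 7 against stiff C and D, 5 at an adjusted p under 0.01, and 17 (without stiff B) to 46 (without soft C) leaving out 1 array. Relatives that rose numbered 4, and 8 with the trended variance, 10 above background, 1 against stiff C and D and 8 when a gene's probe sets were averaged; those that fell numbered 7, and 4 at an adjusted p under 0.01 and 1 against stiff C and D. The cause of these changes was not tested. With the letters as a replicate block, 34 genes had calls in both directions and 3937 probe sets were called in place of 5061, and ZFYVE1 (adjusted p = 0.0508) and CCNB1 (0.0673) missed the threshold. Deviations of same-lettered arrays correlated at 0.122, -0.118, 0.0516 and -0.0447 for A to D, and 2 of 8 arrays correlated best with their own letter, so the letters were not taken as pairs. Signal over background limits GOLIM4 204322_at and ZFYVE16 1555011_at.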

Other observations

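Genes that overlap a member in RefSeq were looked up; their part in the members' values was not tested. DEPDC1-AS1, an antisense RNA of DEPDC1, has 1 probe set, which lay under background on both substrates (4.37 on stiff, 3.97 on soft) and differed by -0.41 (SE 0.139, limma adjusted p = 0.1). PLD4, which overlaps AHNAK2, has 2 probe sets, both under background, that differed by 0.02 each (adjusted p = 0.951 and 0.922).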
